A study of Mus musculus with 4 samples.

Results

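The histone and chromatin-modifier genes were examined in ribosome profiling (Ribo-seq) data of mouse primary cultured cortical neurons. Members were chosen by gene symbol, as rows whose symbol began with a histone, HDAC, sirtuin, KAT, ING, BRD, CBX, KDM, KMT, SETD, CHD, SMARC or HMGA, HMGB and HMGN family name. Of 6352 listed transcripts, 67 matched. They comprised 7 linker histones, 2 HMG box proteins, 8 deacetylases, 6 acetyltransferases and ING proteins, 7 bromodomain proteins, 5 chromobox proteins, 11 lysine demethylases, 5 SET domain proteins, 4 CHD remodelers and 12 SMARC remodelers. No symbol matched the patterns for core histones, KMT methyltransferases, HMGA or HMGN proteins, so every histone described here is a linker histone.

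Neurons were wild-type (WT) or knockout (KO) for Ltn1, a ubiquitin ligase of ribosome-associated quality control, and carried either scrambled RNAi or RNAi against Ttc3, another ubiquitin ligase. All cultures received harringtonine, which blocks ribosomes just after initiation so that footprints collect at start codons, at 5 µg/ml for 3 min. Each of the 4 combinations was 1 library, and neither the age of the animals, the number pooled per culture nor the part of Ltn1 that was deleted is given in the sources used here. The sample titles assign scrambled RNAi to the libraries coded TTC and Ttc3 RNAi to those coded SC, although the code letters read the other way. The study's own ranking of WT and Ltn1 KO neurons appears to rest on the SC libraries, so SC may be the scrambled control, and which RNAi a difference between codes stands for is not settled. The libraries are therefore called WT SC, KO SC, WT TTC and KO TTC, in that order below, and each difference between codes is given between codes.

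The value for each transcript is the number of footprints at its start site per 1000000 reads of the library (RPM), and every value corresponded to a whole number of reads. Each transcript has 1 such site, and since the window counted is not given in the sources used here, levels of different genes are set side by side without division by a length. Library totals ran from 1460425 reads in WT TTC to 3655827 in KO TTC, so 1 read was worth 0.274 to 0.685 RPM. Ltn1 itself had 10, 37, 2 and 0 reads. The library labelled KO SC thus had the highest Ltn1 count, against its label if the start site lies in the deleted part, and "KO" below means only the labelled genotype. Ttc3 had 3, 2, 0 and 0 reads, too few to check the RNAi assignment. All 11 neuron markers had reads, with sums of 1764 to 2019 RPM, and of the non-neuronal lists the 7 measured astrocyte markers summed to 192, 113, 229 and 173 RPM, the 6 oligodendrocyte markers to 37.7, 12, 66.4 and 39.7 RPM and the 3 progenitor markers to 34.8, 23.9, 54.1 and 43.2 RPM. Mbp, which encodes a myelin protein, had 20, 0, 23 and 38 reads, or 9.54, 0, 15.7 and 10.4 RPM. In a bulk culture, fewer cells of a type and fewer footprints per cell cannot be told apart.

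DNA in the nucleus is wrapped on nucleosomes, and linker histones of the H1 family bind where DNA enters and leaves them, compacting the fibre. H1f1 to H1f5 are clustered genes whose mRNAs are made mainly during DNA replication and end in a stem-loop in place of a poly(A) tail, whereas H1f0 and H1f10 are solitary genes expressed outside replication as well. The other members place, remove or read marks on histones or slide nucleosomes, and in neurons several of them are required for the gene programmes of maturation and activity.

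The upstream sequences of the 7 linker histone genes are shown because they separate both classes by letters that the choice of members did not use. Each is the 100 bases before the RefSeq transcript start in build GRCm38.p6, read in the direction of transcription, with CCAAT on either strand (ATTGG on the opposite strand) and TATAAA in capitals.
H1f1, chr13:23763568-23763667, plus strand: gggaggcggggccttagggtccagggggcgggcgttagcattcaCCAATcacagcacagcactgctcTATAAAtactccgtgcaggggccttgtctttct
H1f2, chr13:23738707-23738806, plus strand: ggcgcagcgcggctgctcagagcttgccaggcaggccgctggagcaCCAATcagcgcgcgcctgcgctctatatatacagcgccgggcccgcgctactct
H1f3, chr13:23554932-23555031, plus strand: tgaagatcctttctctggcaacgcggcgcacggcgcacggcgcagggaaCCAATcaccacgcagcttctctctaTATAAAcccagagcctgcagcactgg
H1f4, chr13:23622559-23622658, minus strand: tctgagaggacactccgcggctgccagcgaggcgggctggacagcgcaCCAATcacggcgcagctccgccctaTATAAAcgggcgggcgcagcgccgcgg
H1f5, chr13:21780626-21780725, minus strand: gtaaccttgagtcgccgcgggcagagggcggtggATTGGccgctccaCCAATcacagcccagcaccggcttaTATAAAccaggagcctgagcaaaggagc
H1f0, chr15:79028112-79028211, plus strand: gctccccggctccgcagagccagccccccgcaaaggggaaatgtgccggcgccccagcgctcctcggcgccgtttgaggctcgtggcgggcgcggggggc
H1f10, chr6:87981483-87981582, minus strand: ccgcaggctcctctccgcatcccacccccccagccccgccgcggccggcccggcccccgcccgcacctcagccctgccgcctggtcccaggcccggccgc

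CCAAT stood in this window of all 5 clustered genes on chromosome 13 and of neither solitary gene. TATAAA stood in H1f1, H1f3, H1f4 and H1f5. It was not found in H1f2, H1f0 or H1f10. Of 32851 RefSeq promoter windows searched in the same 100 bases on both strands, 18.9% held CCAAT, 5.56% TATAAA and 1.00% both. The letters AAACACA, searched on both strands in the 250 bases before the start because they recur in H1 promoters, occurred in H1f2, H1f3, H1f4 and H1f5 and in 6.25% of all windows. The matches describe letters only.

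Linker histones gave the largest summed level of any member group. Their 7 genes together reached 167 RPM (95% exact Poisson interval 150.4 to 186) in WT SC, 121 in KO SC (108 to 135), 189.7 in WT TTC (168 to 213) and 198 in KO TTC (184 to 213). KO SC was thus the lowest, with an interval below those of the other 3 libraries. All such intervals cover counting error only, since there was no replicate library. The summed level of the 5 clustered genes was 156, 115, 177 and 188 RPM, so the clustered genes carried most of the linker histone footprints. For comparison, the 60 members other than linker histones summed to 229, 185, 253 and 217 RPM.

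**Figure D1:**
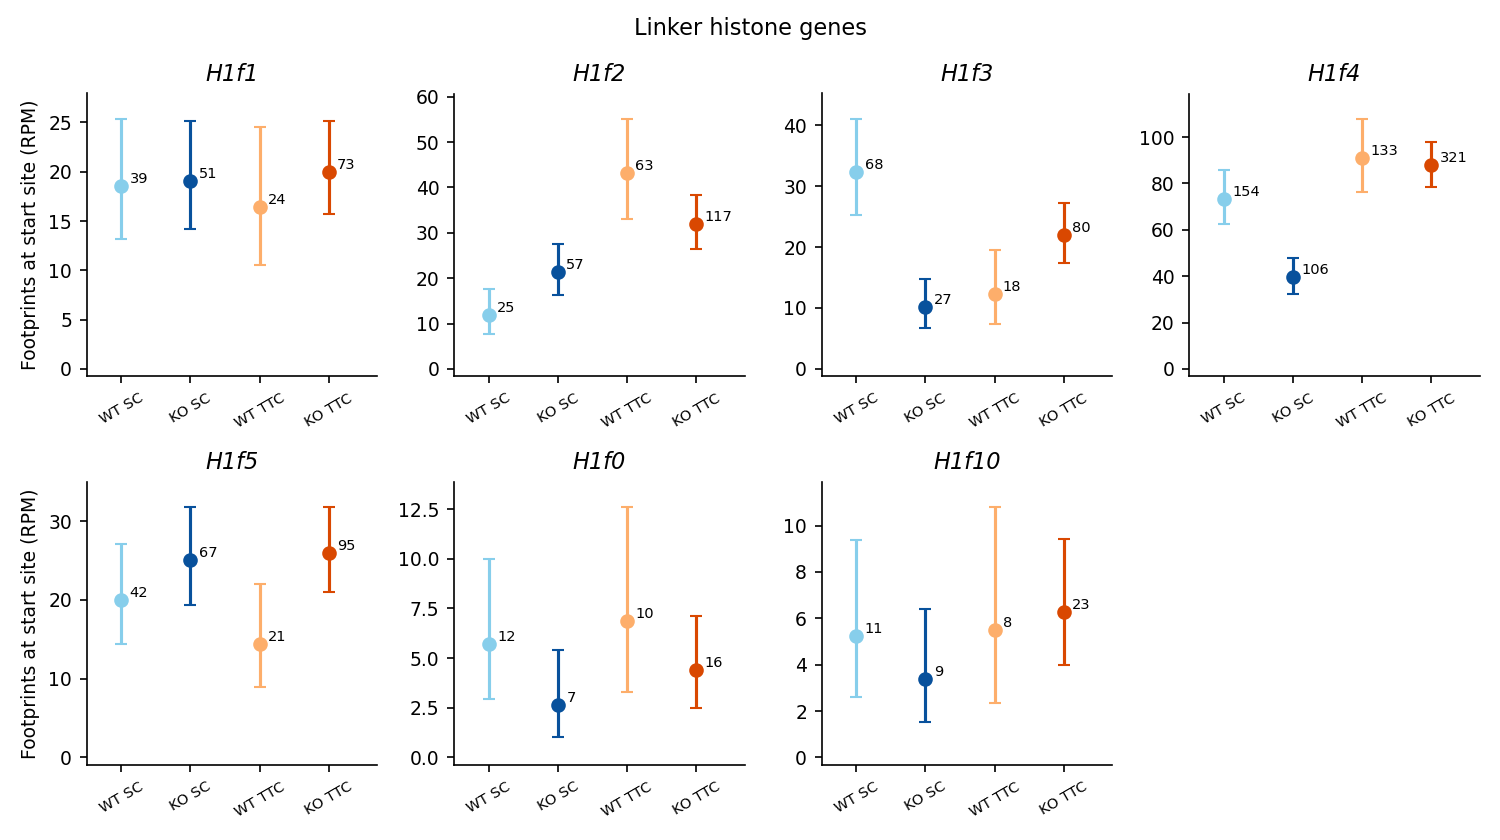
Footprints at the start site in RPM (linear axes, 1 panel per linker histone gene) in the 4 libraries, with 95% exact Poisson intervals as bars and read counts beside the points. H1f4 and H1f3 were lower in KO SC relative to WT SC, H1f2 was higher in WT TTC relative to WT SC, and the intervals of H1f1 overlapped in every library.

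Single genes were compared by a two-sided exact binomial test on reads, adjusted by Benjamini-Hochberg over all transcripts with reads in the pair, and a gene is called, or said to pass, at an adjusted p under 0.05. The test counts reads and knows no difference between cultures, so its calls compare libraries, not conditions. The spread of transcripts with at least 20 reads in a pair exceeded counting error, with a mean Pearson statistic of 3.17 to 5.12 per pair, and when the test statistic was divided by it 0 members were called in any comparison. An edgeR quasi-likelihood fit with genotype and code over the 4 libraries called 0 of 27 members tested. In that fit 3 members had an unadjusted p under 0.05 for genotype, namely Ing4, which was higher, and Hdac2 and Cbx6, which were 1.82-fold and 1.75-fold lower (11.1% of the members tested, against 6.87% of 2808 transcripts). For code the same held for 3 members, H1f2, H1f4 and Cbx6, each higher in the TTC libraries (11.1%, against 14.6% of transcripts). Depth was low for many members, since 24 had fewer than 10 reads over the 4 libraries together.

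H1f4 (chr13:23621777-23622558, gene positions from RefSeq on GRCm38.p6) had the highest mean level of all members, 73.0 RPM, which ranked it 130 among the listed transcripts. Its levels were 73.5, 39.7, 91.1 and 87.8 RPM, from 154, 106, 133 and 321 reads. KO SC was the low library and the other 3 lay above it without overlap of their intervals. H1f4 fell 1.85-fold in KO SC against WT SC (95% interval 1.44 to 2.40, adjusted p = 0.000102, exact binomial test). It was 2.21-fold higher in KO TTC relative to KO SC (1.77 to 2.78, adjusted p = 2.48e-11, exact binomial test), while KO TTC and WT TTC differed by a fold of 0.964 (0.785 to 1.19, adjusted p = 0.967, exact binomial test).

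H1f3 (chr13:23555032-23555807) was highest in WT SC. Its levels were 32.4, 10.1, 12.3 and 21.9 RPM, from 68, 27, 18 and 80 reads. KO SC and WT TTC were both low, with overlapping intervals. H1f3 fell 3.21-fold in KO SC against WT SC (2.03 to 5.22, adjusted p = 1.21e-05, exact binomial test). It was also 2.63-fold lower in WT TTC relative to WT SC (1.55 to 4.70, adjusted p = 0.00270, exact binomial test) and 2.17-fold higher in KO TTC relative to KO SC (1.39 to 3.49, adjusted p = 0.00473, exact binomial test). In the TTC pair the KO library was at 1.78 times the WT level, which did not pass (1.05 to 3.15, adjusted p = 0.169, exact binomial test).

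H1f2 (chr13:23738807-23739531) showed a different order. Its levels were 11.9, 21.3, 43.1 and 32.0 RPM, from 25, 57, 63 and 117 reads, with WT SC lowest and WT TTC highest. It was 3.62-fold higher in WT TTC relative to WT SC (2.24 to 6.00, adjusted p = 1.68e-06, exact binomial test). Neither genotype difference passed, at 1.79-fold higher in KO SC (adjusted p = 0.124) and 1.35-fold lower in KO TTC (adjusted p = 0.289, exact binomial tests). Its start site, shown because the RefSeq window reaches into the coding sequence, lies 42 bases after the transcript start, with ATG in capitals.
H1f2, chr13:23738827-23738856, plus strand: tcctgacttccagagactcatcATGtctga

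The other linker histones did not pass in any comparison. H1f1 (chr13:23763668-23764412) stood within overlapping intervals throughout, at 18.6, 19.1, 16.4 and 20.0 RPM. H1f5 (chr13:21779832-21780625) stood at 20.0, 25.1, 14.4 and 26.0 RPM, with a KO TTC to WT TTC fold of 1.81 (1.12 to 3.05, adjusted p = 0.115, exact binomial test). H1f0 (chr15:79028212-79030504), the replacement linker histone of differentiated cells, was at 5.72, 2.62, 6.85 and 4.38 RPM, and H1f10 (chr6:87980421-87981482) at 5.25, 3.37, 5.48 and 6.29 RPM. Both solitary genes rested on 7 to 23 reads per library.

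The genotype difference of H1f3 and H1f4 differed between the codes. The KO to WT ratio in the TTC pair for H1f3 was 5.70 times its value in the SC pair (adjusted p = 3.66e-05) and 1.79 times for H1f4 (adjusted p = 0.0155, two-sided exact conditional tests of the ratio of ratios). No other member passed this test, which was passed by 3.96% of 4642 transcripts, and H1f2, at a ratio of 0.415, had an adjusted p of 0.0541 in the same exact test. H1f2 did pass it under both rescalings of the libraries and with a mean of at least 5 RPM required. Because the H1 genes are close copies of one another and the handling of reads that align to several genes is not given in the sources used here, footprints may be shared among them. The sum of H1f2, H1f3 and H1f4 does not depend on how reads were divided among these 3 genes, and stood at 118 (104 to 133), 71.1 (61.3 to 81.9), 147 (128 to 168) and 142 (129.8 to 154) RPM, again lowest in KO SC. These 3 genes are those called above, so the sum is not separate evidence. Reads dropped, or shared with H1f1 or H1f5, would still alter it.

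The composition of the linker histone footprints varied as well. H1f4 took 43.9, 32.7, 48.0 and 44.3% of them in the 4 libraries. H1f3 took 19.4% in WT SC (exact binomial interval 15.4 to 23.9) and 8.33% in KO SC (5.56 to 11.9), with 6.50 and 11.0% in WT TTC and KO TTC. H1f2 ran the other way between the SC libraries, with 7.12% in WT SC (4.66 to 10.3) and 17.6% in KO SC (13.6 to 22.2), and took 22.7 and 16.1% in WT TTC and KO TTC. Since mRNAs of the clustered genes are made mainly, but not only, during DNA replication, the cycling markers are given beside them. Only 3 of 15 were measured. Pcna, a replication clamp, was at 13.8, 22.4, 20.5 and 16.7 RPM, from 29, 60, 30 and 61 reads. Top2a, a topoisomerase of dividing cells, had 8, 0, 6 and 0 reads. Mcm6, a replicative helicase subunit, had 0, 12, 0 and 11. The measured cycling markers summed to 17.7, 26.9, 24.7 and 19.7 RPM, and their part in the H1 levels was not tested.

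Among the modifiers, Ing4 (chr6:125039848-125049265) was the member that passed in the same direction in both genotype pairs. ING4 is a PHD finger protein that reads trimethylated H3 lysine 4 and belongs to an acetyltransferase complex. It had 0, 20, 0 and 25 reads, at levels of 7.48 and 6.84 RPM where it was detected, so footprints were seen in both libraries labelled KO and in neither labelled WT. With a library at 0 set to a floor of 3 reads, Ing4 was 5.23-fold higher in KO SC relative to WT SC (adjusted p = 0.000623) and 3.33-fold higher in KO TTC relative to WT TTC (adjusted p = 0.0119, exact binomial tests). Folds against this floor have no interval and leave out counting error in the other library, so they are not lower limits. Of all transcripts, 23 (0.362%) shared the pattern of 0 reads in both WT and at least 10 in both KO libraries, and 28 (0.441%) were called higher in both pairs. Its start codon, shown in capitals because the RefSeq transcript places it only 13 bases after its start, has A at the third base before the ATG and G directly after it.
Ing4, chr6:125039849-125039878, plus strand: ttttgcttcaagATGgctgctgggatgtat

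Ing1 (chr8:11555762-11563251), which encodes a PHD finger subunit of Sin3 deacetylase complexes, had reads in each library other than KO SC. Its counts were 8, 0, 6 and 18. It was at least 3.40-fold lower in KO SC relative to WT SC (adjusted p = 0.0249) and at least 4.39-fold higher in KO TTC relative to KO SC (adjusted p = 0.000967, exact binomial tests). Kat2a (chr11:100704746-100712485), the GCN5 acetyltransferase, was the highest of its group, with 21.0, 20.6, 7.53 and 18.6 RPM. WT TTC was the low library, 2.79-fold below WT SC (1.42 to 5.98, adjusted p = 0.0187, exact binomial test). The KO TTC to WT TTC fold of 2.47 fell just outside the threshold (1.30 to 5.18, adjusted p = 0.0501, exact binomial test). That difference passed under both rescalings of the libraries and with a mean of at least 5 RPM required. The other acetyltransferases had few reads, with Kat8 at 0, 5, 0 and 0, Kat7 at 1, 0, 2 and 0 and Kat5 at 1, 0, 0 and 1.

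Deacetylases remove acetyl groups from histones and other proteins. The 8 genes summed to 57.2 (47.5 to 68.5), 40.4 (33.1 to 48.8), 75.3 (61.9 to 90.8) and 38.8 (32.7 to 45.8) RPM, lower in each library labelled KO, with intervals that overlapped in the SC pair and were separate in the TTC pair. Within the group 6 were lower and 2 higher in KO SC relative to WT SC, and 5 lower and 3 higher in KO TTC relative to WT TTC. Sirt2 was the deacetylase that passed. Sirt2 (chr7:28766752-28788665), a cytoplasmic NAD-dependent deacetylase that is abundant in oligodendrocytes, was at 4.29, 5.99, 21.2 and 8.48 RPM, with WT TTC far above the others. It was 4.94-fold higher in WT TTC relative to WT SC (2.30 to 11.8, adjusted p = 0.000243) and 2.50-fold lower in KO TTC relative to WT TTC (1.47 to 4.26, adjusted p = 0.0102, exact binomial tests). The summed oligodendrocyte markers were likewise highest in WT TTC, at 37.7, 12, 66.4 and 39.7 RPM, and their part in the Sirt2 result was not tested.

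Hdac2 (chr10:36974297-37001889), a catalytic subunit of the Sin3, NuRD and CoREST complexes, was at 20.5, 10.8, 19.2 and 10.9 RPM, from 43, 29, 28 and 40 reads. Both libraries labelled KO lay at about the same level, below both labelled WT. The KO library was 1.89-fold lower in the SC pair (1.15 to 3.14, adjusted p = 0.0898) and 1.75-fold lower in the TTC pair (1.04 to 2.91, adjusted p = 0.190), and neither exact binomial test passed after adjustment. Hdac2 was chosen for this pattern after its values were seen. Hdac11, the highest deacetylase, stood at 21.5, 16.1, 22.6 and 12 RPM. The class II genes Hdac4, Hdac5, Hdac6 and Hdac9 had at most 5 reads in any library.

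**Figure D2:**
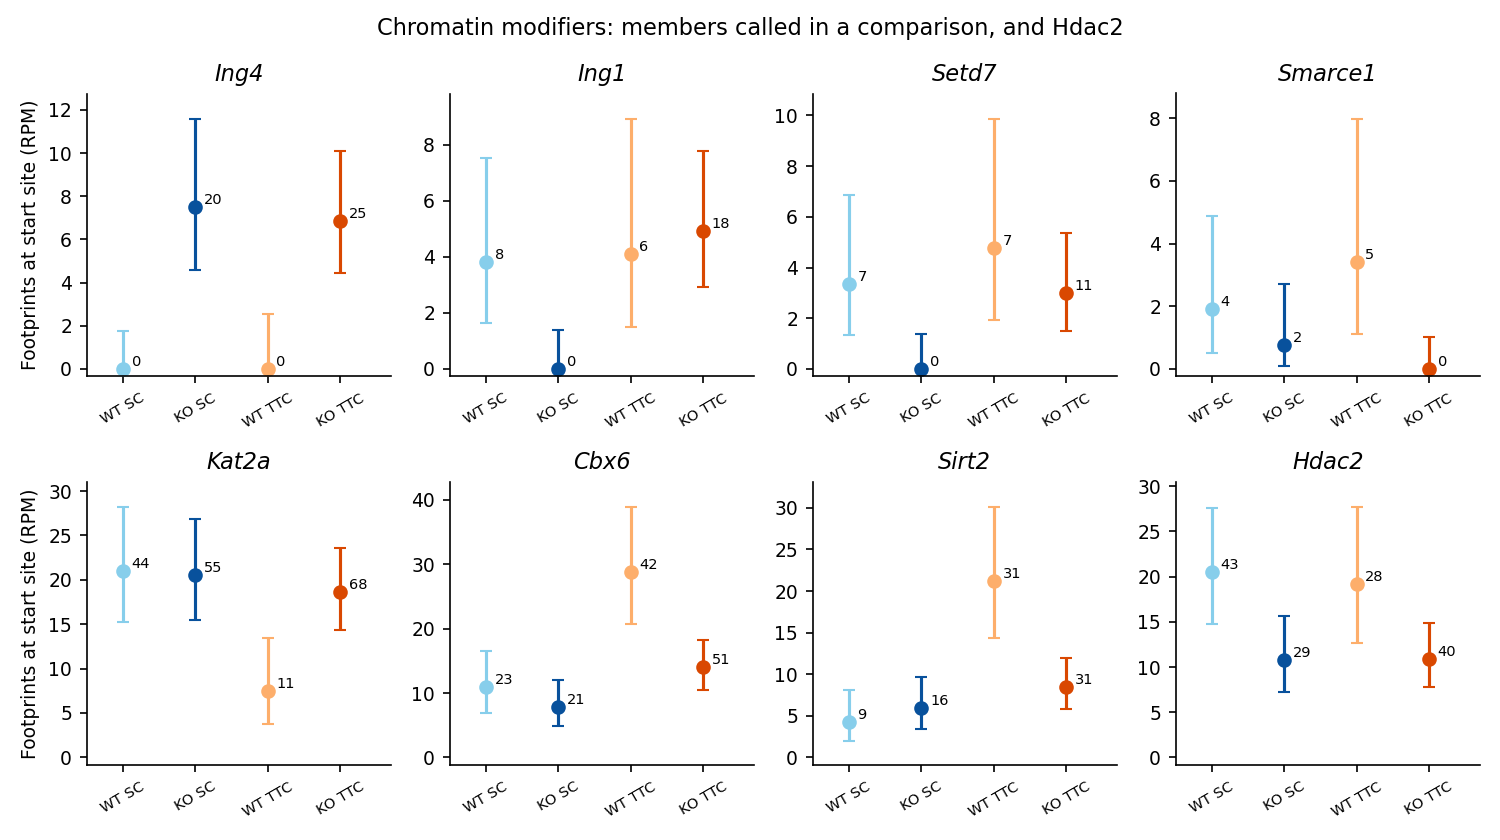
Footprints at the start site in RPM (linear axes) of the 7 modifier genes that passed in a comparison and of Hdac2, in the 4 libraries, with 95% exact Poisson intervals as bars and read counts beside the points. Ing4 had reads in both libraries labelled KO only, Ing1 and Setd7 lacked reads in KO SC, and Cbx6 and Sirt2 were highest in WT TTC.

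Chromobox proteins bind methylated histone H3. Cbx6 (chr15:79823898-79834333), a subunit of Polycomb repressive complex 1, had the highest mean of the 5, at 11.0, 7.86, 28.8 and 14.0 RPM, although Cbx3 was above it in both SC libraries. WT TTC stood above the other 3 libraries without overlap of intervals. Cbx6 was 2.62-fold higher in WT TTC relative to WT SC (1.54 to 4.57, adjusted p = 0.00435) and 2.06-fold lower in KO TTC relative to WT TTC (1.34 to 3.16, adjusted p = 0.0166, exact binomial tests). Of the heterochromatin proteins, Cbx5 (HP1 alpha) was at 4.77, 7.86, 10.3 and 11.5 RPM and Cbx3 (HP1 gamma) at 11.4, 10.5, 14.4 and 12 RPM, and neither passed in any comparison.

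The SET domain methyltransferases had few footprints, most of all in KO SC, where the 5 genes together had 3 reads, all at Setd3. Their sums were 8.11 (4.72 to 13.0), 1.12 (0.231 to 3.28), 8.90 (4.74 to 15.2) and 8.48 (5.76 to 12) RPM. Setd3, an actin histidine methyltransferase, had 9, 3, 5 and 9 reads (4.29, 1.12, 3.42 and 2.46 RPM). Setd7 (chr3:51515318-51560823), which methylates H3 lysine 4 and non-histone proteins, had 7, 0, 7 and 11 reads (3.34, 0, 4.79 and 3.01 RPM). It was at least 2.98-fold lower in KO SC relative to WT SC (adjusted p = 0.0455) and at least 2.68-fold higher in KO TTC relative to KO SC (adjusted p = 0.0275, exact binomial tests), and the first of these calls was lost when libraries were rescaled. Setd5, which is mutated in intellectual disability, had 0, 0, 0 and 8 reads.

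Lysine demethylases summed to 40.6, 30.7, 27.4 and 30.1 RPM and none passed in any comparison. Kdm4b, which removes H3 lysine 9 methylation, had the highest mean, at 17.2, 9.73, 6.85 and 13.1 RPM, from 36, 26, 10 and 48 reads. Its WT TTC to WT SC difference had an adjusted p of 0.0608 in the exact binomial test. That difference passed under both rescalings of the libraries and with a mean of at least 5 RPM required. Kdm4a, of the same subfamily, was at 8.59, 10.8, 7.53 and 9.30 RPM, above Kdm4b in KO SC and WT TTC. Kdm2b, Kdm3a and Kdm5c had 0 reads in all 4 libraries, where the floor of 3 reads corresponds to 1.43, 1.12, 2.05 and 0.821 RPM and the exact Poisson interval of a count of 0 reaches 1.76, 1.38, 2.53 and 1.01 RPM. KDM5C, an X-linked H3 lysine 4 demethylase, is mutated in intellectual disability.

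Bromodomain proteins bind acetylated lysines. The 7 genes summed to 15.3 (10.4 to 21.6), 7.48 (4.57 to 11.6), 8.90 (4.74 to 15.2) and 10.1 (7.13 to 14.0) RPM, and none passed. Brd8, a subunit of the TIP60 acetyltransferase complex, was highest with 12, 12, 5 and 14 reads. Brd1 had 9, 1, 4 and 0 reads, and its genotype differences had adjusted p of 0.0785 (SC) and 0.0716 (TTC, exact binomial tests). The HMG box proteins bend DNA, and Hmgb2 had 3, 6, 6 and 17 reads. Hmgb1 had 3, 3, 1 and 2 reads, or 1.43, 1.12, 0.685 and 0.547 RPM.

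The ATP-dependent remodelers slide or evict nucleosomes. The 12 SMARC genes summed to 40.6 (32.4 to 50.1), 33.3 (26.7 to 41.0), 47.2 (36.8 to 59.8) and 39.1 (33.0 to 46.1) RPM, with intervals that overlapped throughout. Smarca4, the BRG1 ATPase of BAF complexes, had the highest mean over the 4 libraries through WT TTC, at 5.72, 4.12, 12.3 and 7.11 RPM. Smarca2, the alternative BRM ATPase, was above it in both SC libraries, at 9.06, 4.86, 6.85 and 7.11 RPM, and neither passed. Smarce1 (chr11:99209047-99231017), the BAF57 subunit, was the SMARC gene that passed, with 4, 2, 5 and 0 reads. With KO TTC set to the floor of 3 reads, Smarce1 was 4.17-fold lower there relative to WT TTC (adjusted p = 0.0315, exact binomial test). The CHD genes, among them Chd8, a gene mutated in autism, had few reads. Chd8 had 4, 8, 4 and 16, and Chd4 of the NuRD complex had 7, 2, 3 and 5, or 3.34, 0.748, 2.05 and 1.37 RPM. Chd5 and Smarcd3 had 0 reads in all 4 libraries.

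**Figure D3:**
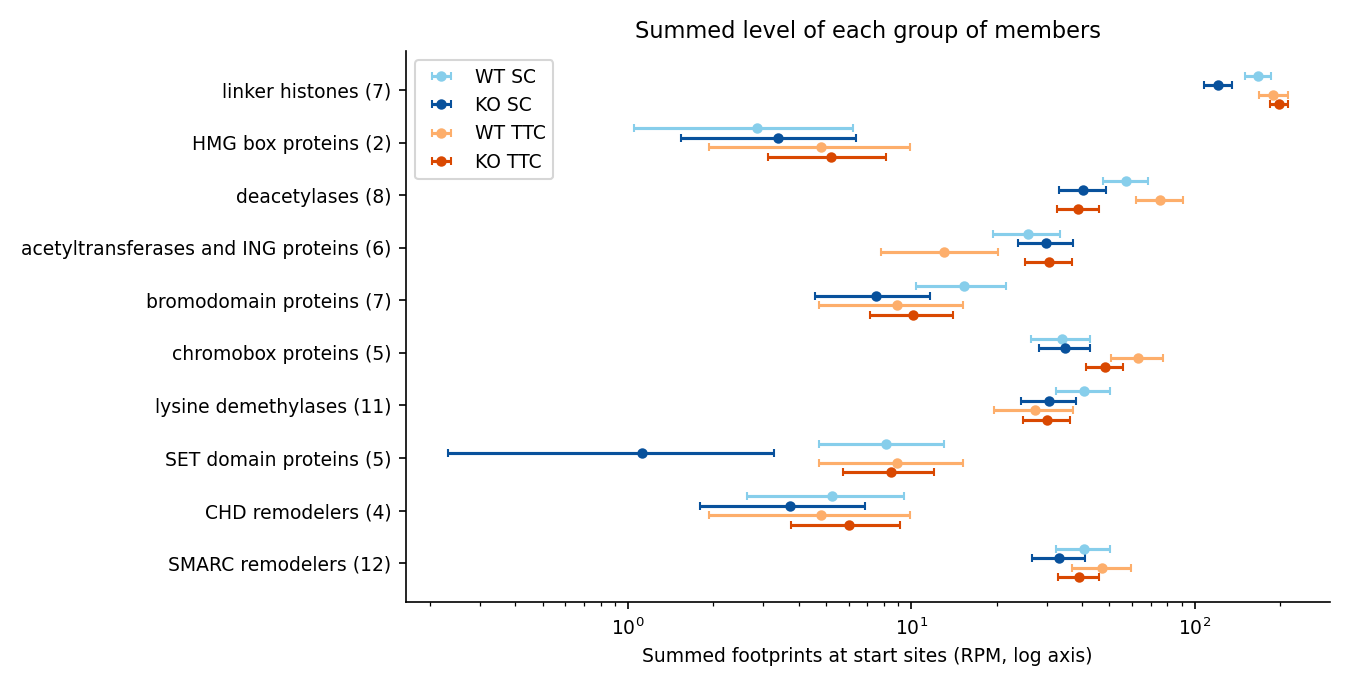
Summed footprints at start sites of the 10 member groups (number of genes in parentheses) in RPM on a log axis, 1 point per library with 95% exact Poisson intervals. Linker histones were highest in every library, the deacetylase sums of both libraries labelled KO lay below those labelled WT, and SET domain proteins were lowest in KO SC.

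Counted over all 67 members, KO SC was lower than WT SC at 36 and higher at 20 (53.7 and 29.9%, against 46.3 and 38.0% of all transcripts). The median difference of members was -0.0354 on the log10(RPM + 1) scale and that of all transcripts 0. Of the 56 members with reads in the pair, 4 were called lower (H1f3, H1f4, Ing1, Setd7), where 4.74% of all 5355 tested transcripts were, and 1 higher (Ing4), where 2.63% were. The 5 called members are 8.93% of those tested. Rescaling by median-of-ratios factors, which moved this pair by 0.140 on the log2 scale, turned the all-transcript calls from 64.3% lower to 47.1% lower, and left 33 members lower and 23 higher with a member median of 0.

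KO TTC was lower than WT TTC at 27 members and higher at 32 (40.3 and 47.8%, against 42.1 and 43.7% of all), and both medians were 0. Of 59 members with reads, 3 were called lower (Cbx6, Sirt2, Smarce1), against 4.41% of 5448 transcripts, and 1 higher (Ing4), against 3.14%. Across both pairs, 19 members were lower in both libraries labelled KO (28.4%, against 22.9% of all transcripts), among them H1f0, H1f4, Hdac2, Hdac3, Hdac11, Kdm1a and Smarca4. Another 13 were higher in both (19.4%, against 19.2%), including Ing4, Cbx5, H1f1 and H1f5. These counts take direction only, and some differences were slight. The fold was 0.964 for H1f4 in the TTC pair (0.785 to 1.19) and 1.03 for H1f1 in the SC pair (0.663 to 1.60).

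**Figure D4:**
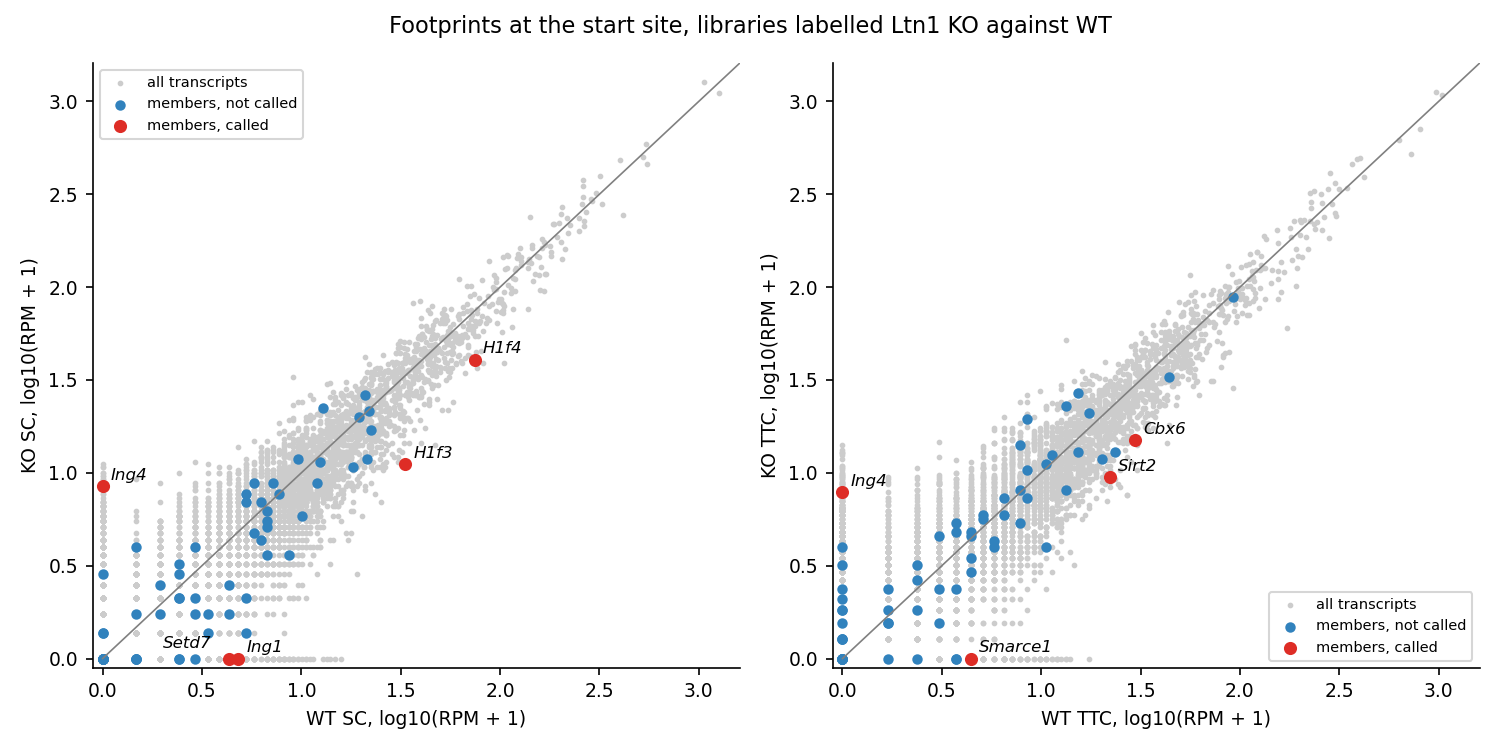
Footprints of each transcript in the library labelled KO against the WT library of the same code, both on log10(RPM + 1) axes, with the SC pair on the left and the TTC pair on the right. Grey points are all transcripts, blue points members not called, red points members called by the exact binomial test, and the line marks equality. Ing4 lies on the left edge in both panels and H1f3 and H1f4 lie below the line in the SC pair.

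Between the codes, KO TTC was higher than KO SC at 41 members and lower at 17 (61.2 and 25.4%, against 51.5 and 37.1% of all), with a median difference of 0.0989 for members and 0.0126 for all transcripts on the log10(RPM + 1) scale. Of 58 members with reads, 4 were called higher (H1f3, H1f4, Ing1, Setd7), against 10.9% of 5623 transcripts, and 0 lower, against 5.71%. At an unadjusted p under 0.05, 9 members differed (15.5%, against 27.4% of all transcripts). The 4 called genes are those called lower in KO SC against WT SC, and both comparisons share the KO SC library. All 7 linker histones were higher in KO TTC relative to KO SC, with 2 called. For H1f1 and H1f5 the folds were only 1.05 and 1.04, too small to keep this direction under either rescaling. Under median-of-ratios scaling, which moved this pair by -0.175 on the log2 scale, 38 members were higher and 20 lower, and the share of lower calls over all transcripts went from 34.4 to 52.0%.

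WT TTC was higher than WT SC at 29 members and lower at 28, with medians of 0 for members and for all transcripts. Of 57 members with reads, 3 were called higher (H1f2, Sirt2, Cbx6), against 7.02% of 5345 transcripts, and 2 lower (H1f3, Kat2a), against 3.82%. Counted in either direction, the called members made up 8.93% of those with reads in KO SC against WT SC (all transcripts 7.38%), 6.78% in KO TTC against WT TTC (7.54%), 6.90% in KO TTC against KO SC (16.6%) and 8.77% in WT TTC against WT SC (10.8%). Members took 0.622% (exact binomial interval 0.581 to 0.666), 0.505% (0.471 to 0.541), 0.646% (0.598 to 0.698) and 0.620% (0.589 to 0.652) of the listed footprints, again lowest in KO SC.

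Other genes of chromatin pathways were counted from 6 lists. Of the 12 measured BAF subunits besides the SMARC members, Arid1a, the DNA-binding subunit, had 2, 4, 14 and 5 reads and was higher in WT TTC relative to WT SC (adjusted p = 0.00398) and lower in KO TTC relative to WT TTC (adjusted p = 0.00249, exact binomial tests). Of 19 measured NuRD, Sin3, CoREST and NCoR subunits, the histone-binding Rbbp7 was at 24.3, 11.6, 24.0 and 20.2 RPM and fell in KO SC against WT SC (adjusted p = 0.0223), and Sap18 and Sin3b, both of Sin3 complexes, were higher in WT TTC relative to WT SC (adjusted p = 0.000242 and 0.0130, exact binomial tests). Rbbp4 was higher in KO TTC relative to KO SC (adjusted p = 0.0282, exact binomial test). In the SC genotype pair the BAF list had 0 calls and the NuRD list 1 lower. In the TTC genotype pair the BAF list had 1 lower and the NuRD list 0. Among all transcripts tested, lower calls made up 4.74% for KO SC against WT SC and 4.41% for KO TTC against WT TTC. Higher calls made up 2.63% and 3.14% there, 7.02% for WT TTC against WT SC and 10.9% for KO TTC against KO SC. With 12 and 19 genes measured, 0 or 1 calls in a genotype pair cannot set either list apart from these shares.

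Among 24 measured histone chaperones and associated proteins, 2 were called lower in KO SC against WT SC and 0 higher. Over all tested transcripts, 4.74% were called lower in this pair and 2.63% higher. The 2 chaperone-list genes were Ssrp1, a FACT subunit, at 6.68, 1.12, 4.11 and 6.29 RPM (adjusted p = 0.0346) and Anp32b at 4.77, 0.374, 2.74 and 2.74 RPM (adjusted p = 0.0300, exact binomial tests). In KO TTC against KO SC the same list had 3 called higher and 1 lower, where 10.9% and 5.71% of all tested transcripts were. Of 9 measured DNA and H3K9 methylation genes, 2 were called lower in KO SC against WT SC, among them Uhrf2, at 8.11, 1.12, 0 and 0 RPM (adjusted p = 0.00927, exact binomial test). None of the 17 Polycomb and Trithorax genes or of the 16 acetylation complex subunits passed in either genotype pair. Between the KO libraries, KO TTC had lower Rbbp5 (adjusted p = 0.0102) and higher L3mbtl2 (adjusted p = 0.0275), and Trrap was lower in WT TTC relative to WT SC (adjusted p = 0.0409, exact binomial tests).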

How the data were processed

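Ribo-seq libraries of harringtonine-treated neurons, 1 for each of 4 conditions, were used as deposited. The authors aligned reads with Bowtie and used SAMtools and bedtools on mouse build GRCm38 (mm10), per the submitters' processing notes. The deposited values are RPM at each start site, relative to all reads of the library. The window counted, read offset, choice of transcripts and handling of multiply aligned reads are not given in the sources used here. A wider window or shared reads would alter levels.

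Reads were recovered by dividing by the smallest step, and 100.0% of values came out whole within 1e-06. Symbols were joined by transcript identifier to the study's gene list, for 6349 transcripts (38 identifiers mended), and positions and upstream sequences came from RefSeq. Library totals and the worth of 1 read stand in the report. No replicate existed.

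Pairs of libraries were compared by an exact binomial test (two-sided, conditional on both library totals), Benjamini-Hochberg adjusted over all transcripts with a read in the pair at a threshold of 0.05 (scipy 1.17.1). The ratio of ratios used Fisher's noncentral hypergeometric distribution. A library at 0 was set to a floor of 3 reads for folds, which leave out counting error in the other library. Differences used log10(RPM + 1). The tests were tried on simulated reads with counting error only, which does not show how they behave at the larger spread seen here. Alternatives were 2 rescalings, a pseudocount of 0.1, a mean of at least 5 RPM, and, chosen after seeing the data, a scaled chi-square statistic and edgeR 4.0.16.

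Named genes were every linker histone, every called member, the highest member of each group, members at 0 throughout, called genes of the lists (at most 4 a list) and a few others named after their values were seen. The members and lists were chosen with earlier results of these data known. Some genes of the lists are not reported here.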

Additional observations from a re-analysis of the deposited data

Results flagged for a closer look

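In 2 genes the KO to WT ratio differed between the SC and the TTC pair beyond counting error. For H1f3 the ratio in the TTC pair was 5.70 times that in the SC pair (adjusted p = 3.66e-05, exact conditional test), as H1f3 was 3.21-fold lower in KO SC relative to WT SC and stood at 1.78 times the WT level in KO TTC. For H1f4 it was 1.79 times (adjusted p = 0.0155, exact conditional test). H1f2, at 0.415 times, passed only with libraries rescaled or with a mean of at least 5 RPM required. Each rests on 1 library per condition.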

How the results depend on the processing

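With a mean of at least 5 RPM required, 2 members were called in KO SC against WT SC (H1f3 and H1f4) in place of 5, because Ing1, Ing4 and Setd7 were below the minimum. With the chi-square statistic divided by the mean Pearson statistic of the pair, 0 members were called in each of the 4 comparisons (5, 4, 4 and 5 by the exact test), and the edgeR fit also called 0, with 3 members at an unadjusted p under 0.05 for genotype and 3 for code (193 and 411 of all 2808 transcripts tested). Over all transcripts the divided statistic called 3 transcripts in the SC pair (2 of them lower) and 5 in the TTC pair, each lower. The other alternatives gave counts of called members within 1.5 times. Both rescalings and the 5 RPM minimum added H1f2 to the ratio-of-ratios result. They also added Kat2a in KO TTC against WT TTC and Kdm4b in WT TTC against WT SC. The 5 RPM minimum further added H1f2 in KO TTC against KO SC. The member median of KO SC against WT SC went from -0.0354 to -0.0149 with equal site sums and to 0 with median-of-ratios factors, and in WT TTC against WT SC both rescalings turned 28 lower and 29 higher members into 30 lower and 27 higher. Over all transcripts, median-of-ratios factors turned the calls of KO SC against WT SC from 254 lower and 141 higher into 178 and 200. Of 18 called single-gene results, 17 stayed called under each rescaling, the exception being Setd7 in the SC pair (adjusted p = 0.0580 with median-of-ratios factors, exact binomial test), and 11 of the 11 that could be tested at 5 RPM. Over all transcripts, rescaling to equal site sums moved the share of lower calls from 34.4 to 49.4% in KO TTC against KO SC, and from 35.2 to 45.1% in WT TTC against WT SC. Depth limits members with few reads, where 1 read was worth up to 0.685 RPM. No paired analysis was possible because each condition had 1 library, and for the same reason no library could be left out.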
